A study of Mus musculus with 6 samples.

Results

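The mouse Hox genes of the HoxA, HoxB, HoxC and HoxD clusters were examined in a list of methylated regions from cultured cartilage cells. Members were the GRCm38 genes whose symbol is Hoxa, Hoxb, Hoxc or Hoxd and a number: 38 genes, of 15768 protein-coding genes on the sequence the list covers. HoxA on chromosome 6 and HoxB on chromosome 11 gave 10 genes each, and HoxC on chromosome 15 and HoxD on chromosome 2 gave 9 each. Primary chondrocytes, the cells of cartilage, were grown from knee articular cartilage of mice at postnatal day 3 to 5. Of the 6 cultures, 3 came from control mice labelled Dnmt1 flox and 3 from conditional knockout (cKO) mice labelled Prx1-Cre;Dnmt1 flox/flox. Both groups thus carry a floxed allele of Dnmt1, the methyltransferase that copies CpG methylation onto newly made DNA, and the Cre of the cKO mice is driven by a Prx1 promoter that is active in limb mesenchyme. Methylated DNA was caught with the methyl-CpG-binding protein MBD2 from fragments of about 300 bp and sequenced (MBD-seq).

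The data were 1 list of 84111 peaks called on 3 merged datasets, and the name of the list ties its regions to methylation that depends on Dnmt1. Which cultures were merged, and which set served as the background of the peak caller, is not stated. No value of the list belongs to a culture, which left control and cKO without a comparison, the animals without a measure of spread and the samples without a known depth. The list holds no expression, so the label chondrocyte was not checked against marker genes. Each peak has the authors' fold enrichment, the reads stacked at the peak over the caller's background. From the fold and the p-value of a peak the number of stacked reads (pileup) and the background were recovered, with a lowest background of 6.37 reads. The intervals below are exact 95% Poisson intervals of the pileup and cover no error beyond counting. They take reads as independent molecules, which sequencing reads are not, so they may be too narrow.

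Hox genes encode homeodomain transcription factors that give positional identity along the body axis and along the limb. Genes of the same number in different clusters are paralogues, copies that arose when an ancestral cluster was duplicated, and they form 13 groups. Within a cluster the genes lie in the order of their domains of action: low numbers act anteriorly, high numbers posteriorly, and the posterior genes of HoxA and HoxD pattern the limb from shoulder or hip to digits. Here groups 1 to 8 were called anterior and groups 9 to 13 posterior. In cells where a cluster is silent it is commonly covered by Polycomb proteins, and its many CpG islands are then mostly free of DNA methylation.

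A peak lay inside or within 2 kb of 21 of the 38 Hox genes (55.3%), with peaks placed by their midpoint. The same was true of 68.4% of all protein-coding genes. Hox genes are short, with a median of 3.72 kb against 18.6 kb for protein-coding genes, and among the 5372 protein-coding genes no longer than 10 kb the share was 42.4%. The share of all 38 Hox genes therefore lay between these 2 backgrounds. With the 6 Hox genes longer than 10 kb left out, a choice made after seeing the data, 16 of the remaining Hox genes had a peak. That share lay above the 42.4% of short protein-coding genes, a difference that was not tested. At a fold of at least 10 the share of all Hox genes was 34.2%, against 60.4% of protein-coding genes. With only the peaks above the lowest background it was 26.3%, against 21.5%. Inside the gene itself 16 Hox genes (42.1%) held a peak, against 64.7% of all protein-coding genes. These last 3 comparisons have no background of short genes, so gene length was not matched in them. The 21 genes shared 46 distinct peaks, since neighbouring genes share peaks and the gene models of Hoxa3, Hoxb3 and Hoxd3 each contain other Hox genes.

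The clusters differed widely. HoxA had a peak at 8 of 10 genes, HoxC at 6 of 9, HoxD at 5 of 9 and HoxB at 2 of 10. From the first to the last gene analysed, 23 peaks lay in the 98.5 kb of HoxA, 15 in the 116 kb of HoxC, 11 in the 96.9 kb of HoxD and 2 in the 174 kb of HoxB. This gave 23.4 peaks per 100 kb in HoxA, 7.03 times the mean of chromosome 6, and only 0.456% of 19518 windows of 100 kb across the covered genome held as many. HoxC had 13 peaks per 100 kb, 2.72 times its chromosome, a density reached by 5.37% of windows. HoxD had 11.3, 2.86 times its chromosome, a density reached by 6.70% of windows. HoxB had 1.15 peaks per 100 kb, 0.23 of the mean of chromosome 11, and 72.4% of windows held at least as many. Peaks covered 13.4% of the bases of HoxA, 6.65% of HoxC, 3.19% of HoxD and 0.562% of HoxB.

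**Figure D1:**
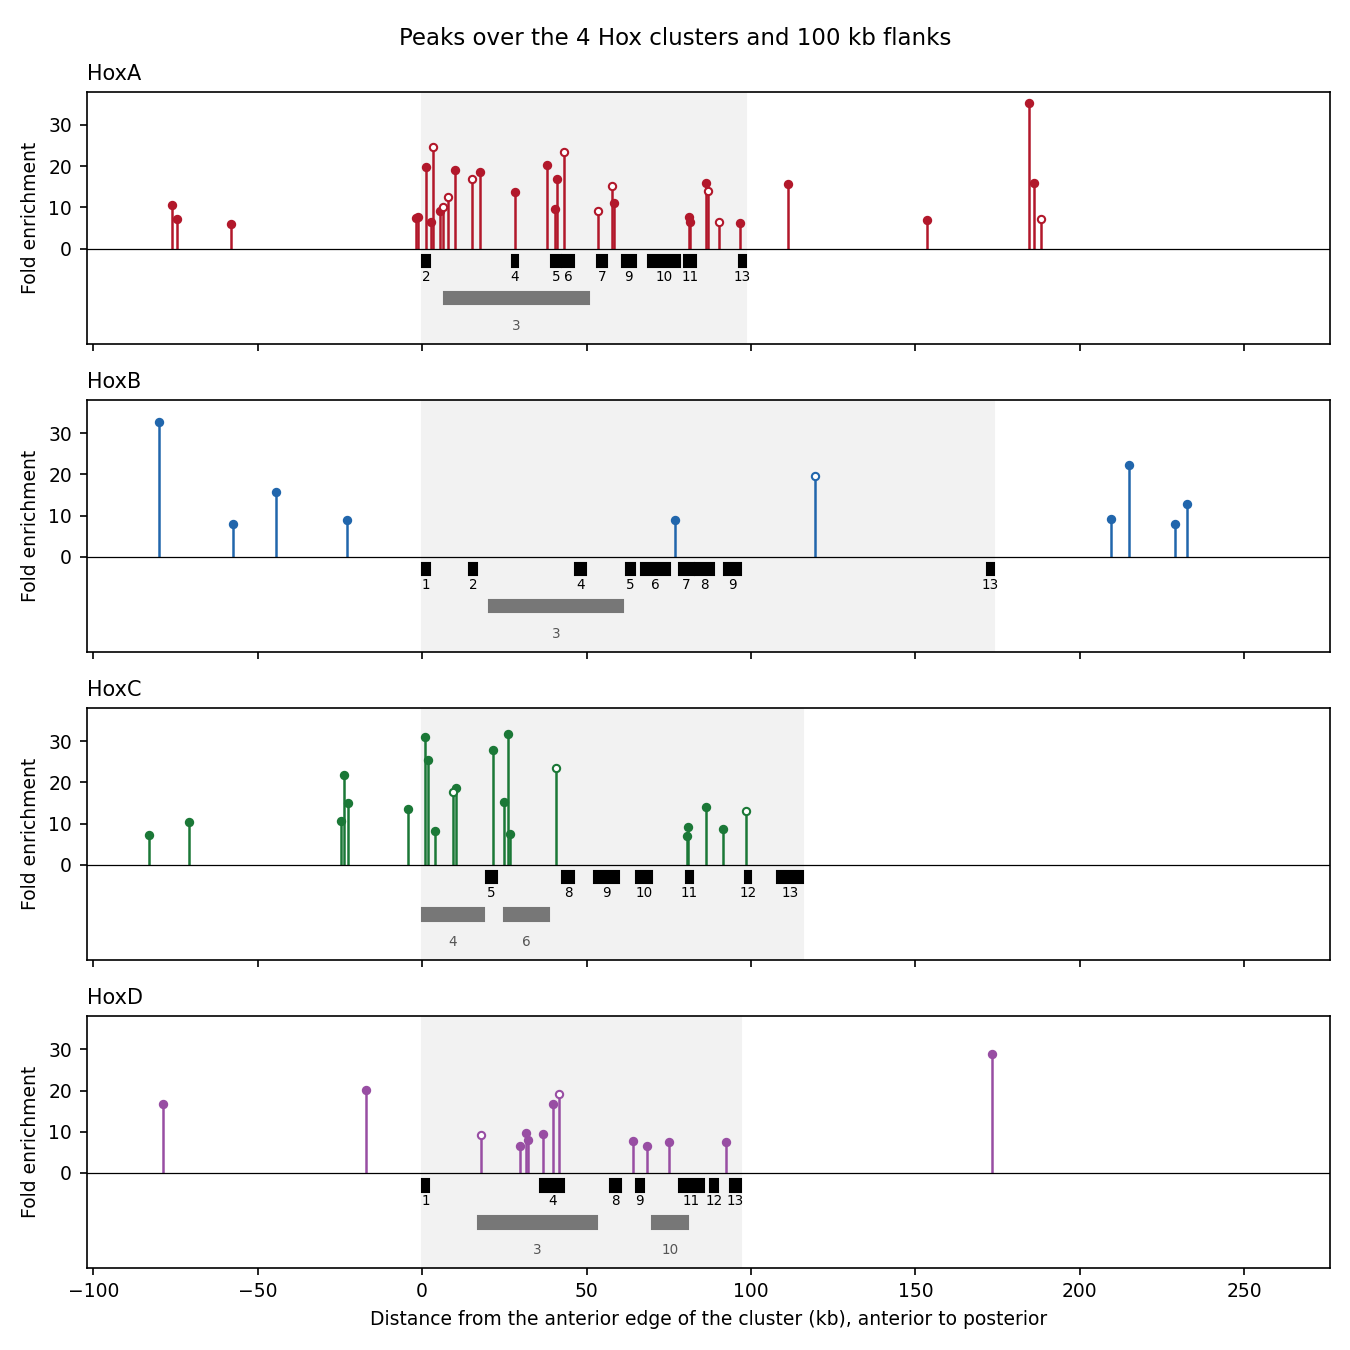
Fold enrichment (vertical axis) of each peak against its distance in kb from the anterior edge of the cluster (horizontal axis), with the cluster shaded and 100 kb on each side. Filled points are peaks at the lowest background and open points peaks above it; black bars are Hox genes with their paralogue group below and grey bars gene models longer than 10 kb. HoxA is filled with 23 peaks and HoxB holds 2.

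The flanks of the clusters were compared in the same way. The 100 kb on each side together held 10 peaks at HoxA, 8 at HoxB, 6 at HoxC and 3 at HoxD, or 5, 4, 3 and 1.5 peaks per 100 kb. HoxA, HoxC and HoxD were thus denser than their own flanks, and HoxB was sparser than its flanks. All 6 flank peaks of HoxC lay on the side of Hoxc4, and none in the 100 kb beyond Hoxc13. Of the 5 flank peaks on the side of Hoxa2, 2 lay within 2 kb of that gene.

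**Figure D2:**
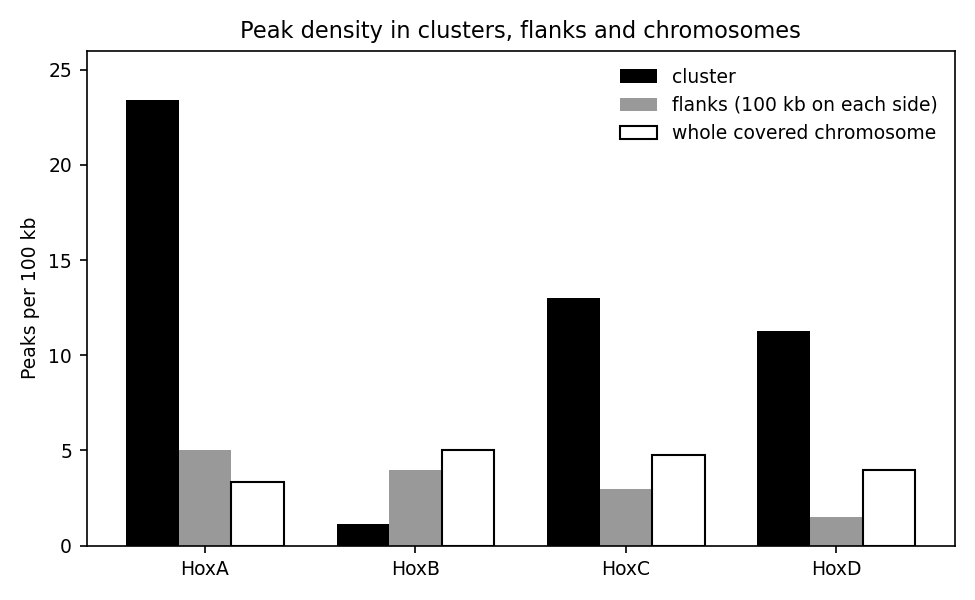
Peaks per 100 kb (vertical axis) in each cluster (black), in its 100 kb flanks (grey) and over its covered chromosome (white). HoxA reaches 23.4 and HoxB 1.15, against 3.32 and 5.01 on their chromosomes.

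HoxA is taken first, from its anterior end. Hoxa2, which sets the identity of the second pharyngeal arch, had 5 peaks. The strongest, chr6:52165563-52166105, lay upstream of the gene start and had 212 reads (interval 184 to 243) and a fold of 24.6. A peak of 483 bp inside the gene, chr6:52163243-52163725, had a fold of 19.7. The other 3 were narrow, from 113 to 172 bp, with folds of 6.51, 7.33 and 7.6. So Hoxa2 had 2 strong peaks and 3 near the lower limit of the list.

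Hoxa3, a gene of pharyngeal and neck structures, had 11 peaks, the most of any Hox gene. Its model is 44.0 kb long and runs across Hoxa4, Hoxa5 and Hoxa6, so 5 of these 11 peaks were also counted for those genes. Of the 6 counted for Hoxa3 alone, those at the low-coordinate end had folds of 9.09, 10.2 and 12.6, and the next 3 had folds of 19.1, 16.9 and 18.6. The peak with a fold of 12.6, chr6:52169893-52170927, was 1035 bp wide and had 325 reads (interval 291 to 362), the most of any cluster peak but one, over a background of 24.9 reads. That background was 3.9 times the lowest, so a high pileup gave a moderate fold.

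Hoxa4 had a single peak, with a fold of 13.8. Hoxa5, needed for lung and axial skeleton development, had 4 peaks with folds of 20.2, 9.63, 16.8 and 23.4. The last of them, chr6:52204147-52206801, was 2655 bp wide, the widest peak in any of the clusters. Only 46 peaks of the whole list, 0.0547%, were as wide or wider. It covered the start of Hoxa5 and ran into the neighbouring Hoxa6, with 235 reads (interval 206 to 267) over a background of 9.09 reads. Hoxa6 had this peak and the one of 925 bp with a fold of 16.8, both shared with Hoxa5. Hoxa7 had 2 peaks, with folds of 9.15 and 15.3, and a peak with a fold of 11.1 lay between it and Hoxa9, just over 2 kb from both.

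The posterior HoxA genes looked different. Hoxa9 and Hoxa10 had no peak, and the longest stretch without one in HoxA, 22.6 kb, ran across both into Hoxa11. Hoxa11, which patterns the middle segment of the limb, had 2 narrow peaks of 156 and 88 bp with folds of 7.6 and 6.38. Hoxa13, a gene of the hand and foot, had 1 peak of 66 bp, chr6:52259085-52259150, with 45 reads (interval 32.8 to 60.2) and a fold of 6.24, the lowest of all cluster peaks. Between Hoxa11 and Hoxa13 lay 3 wider peaks at no Hox gene. Those at chr6:52248330-52248881 and chr6:52249099-52249767 overlapped the antisense RNA gene Hoxa11os and had folds of 16 and 13.9. The third, of 948 bp, had a fold of 6.54 over a background of 31.6 reads, 4.95 times the lowest.

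Promoter sequences were available from the RefSeq promoter table (GRCm38.p6) for 22 of the 38 genes, as 24 windows from 250 bases before to 50 after a gene start. No entry was found for Hoxa4, Hoxb2, Hoxb3, Hoxb5, Hoxb6, Hoxb7, Hoxb9, Hoxb13, Hoxc5, Hoxc6, Hoxc8, Hoxc9, Hoxc10, Hoxc11, Hoxc12 and Hoxc13. A peak overlapped 1 of the 24 windows (4.17%), that of Hoxa5, which lay wholly inside the 2655 bp peak. Over all 24394 windows of covered sequence the share was 4.26%. The dinucleotide CG, the site that MBD2 binds when methylated, was counted in each window. It reads the same on both strands. At least 1 CG was found in all 24 Hox windows and in 95.1% of all windows. The median was 14.5 CG per Hox window, with a range from 4 to 45, against 7 over all windows with quartiles at 3 and 21.

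The 250 bases before the start of Hoxa5 are shown with those of 3 Hox genes without a peak there, to set methylation capture beside CG content. Hoxa6 is the neighbour on the same strand, Hoxd13 a CG-rich posterior gene and Hoxb4 a gene of the sparse cluster. They lie at chr6:52204588-52204837 (minus strand), chr6:52208673-52208922 (minus strand), chr2:74667975-74668224 (plus strand) and chr11:96318017-96318266 (plus strand). Each is written 5′ to 3′ with CG in capitals.
Hoxa5: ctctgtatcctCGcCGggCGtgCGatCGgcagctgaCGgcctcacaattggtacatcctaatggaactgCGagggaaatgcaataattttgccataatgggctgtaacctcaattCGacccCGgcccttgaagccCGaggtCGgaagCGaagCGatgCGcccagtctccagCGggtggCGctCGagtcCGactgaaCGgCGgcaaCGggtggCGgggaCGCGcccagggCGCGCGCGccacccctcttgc
Hoxa6: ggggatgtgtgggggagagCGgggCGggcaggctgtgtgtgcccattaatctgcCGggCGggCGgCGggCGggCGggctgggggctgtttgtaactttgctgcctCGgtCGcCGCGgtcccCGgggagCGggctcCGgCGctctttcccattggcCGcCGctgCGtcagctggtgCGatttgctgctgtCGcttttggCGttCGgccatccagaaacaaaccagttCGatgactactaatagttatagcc
Hoxd13: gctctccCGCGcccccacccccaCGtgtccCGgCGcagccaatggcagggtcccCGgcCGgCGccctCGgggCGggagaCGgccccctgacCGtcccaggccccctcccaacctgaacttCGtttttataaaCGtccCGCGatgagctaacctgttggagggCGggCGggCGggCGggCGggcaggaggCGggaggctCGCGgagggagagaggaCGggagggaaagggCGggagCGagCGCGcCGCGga
Hoxb4: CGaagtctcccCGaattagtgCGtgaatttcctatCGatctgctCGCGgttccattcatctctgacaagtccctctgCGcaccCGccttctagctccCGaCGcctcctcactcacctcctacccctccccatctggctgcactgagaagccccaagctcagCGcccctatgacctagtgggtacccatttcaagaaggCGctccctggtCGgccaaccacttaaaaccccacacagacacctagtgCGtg
These stretches hold 28 CG for Hoxa5, 24 for Hoxa6, 31 for Hoxd13 and 14 for Hoxb4. Hoxd13 thus had more CG than Hoxa5 and no peak within 4428 bp of its window. Of the 11 Hox windows with at least 20 CG, the window of Hoxa5 was the 1 overlapped. Among the 6736 windows of all genes with at least 20 CG, 0.995% were overlapped, against 9.63% of windows with 10 to 19 CG and 9.64% of those with 5 to 9. In the 8984 windows with 0 to 4 CG, 3 of them Hox windows, the share was 1.52%, so windows with few CG and windows with many were both seldom overlapped.

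Some other Hox starts lay close to a peak without touching it. The nearest peak was 32 bp from the window of Hoxa2, 142 bp from that of Hoxc4 and 571 bp from that of Hoxd9. In HoxB the windows of Hoxb8, Hoxb1 and Hoxb4 lay 9137, 25002 and 26700 bp from the nearest peak.

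**Figure D3:**
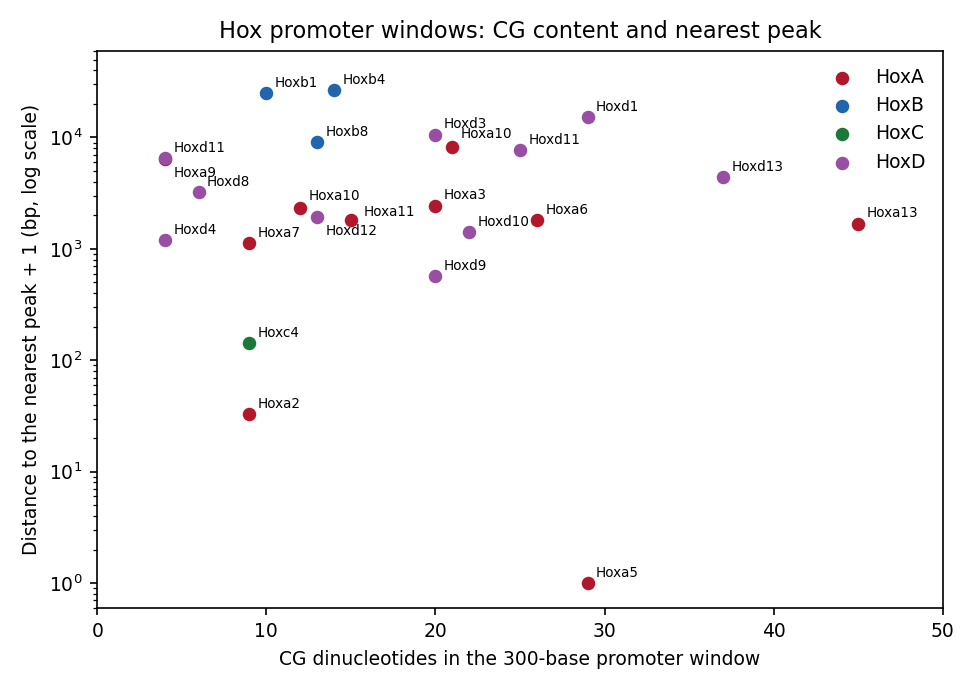
Distance in bp from each Hox promoter window to the nearest peak (vertical log axis, 1 added) against the number of CG in the window (horizontal axis), 1 point per window, coloured by cluster. Hoxa5 sits at distance 0 with 29 CG, whereas Hoxa13 and Hoxd13, with 45 and 37 CG, lie 1681 and 4428 bp from a peak.

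HoxB was nearly empty. Hoxb6 and Hoxb7, genes of the trunk, shared its only gene-associated peak, chr11:96291091-96291317, which lay between them, 1497 bp from Hoxb6 and 928 bp from Hoxb7. It had 64 reads (interval 49.3 to 81.7), a fold of 8.82 and a width of 227 bp. The other peak of the cluster, chr11:96248502-96249252, lay in the long interval between Hoxb9 and Hoxb13 at the pseudogene Gm11539. It had 334 reads (interval 299 to 372) over 16 reads of background, a fold of 19.7. None of the 10 HoxB genes had a peak inside the gene. The distance to the nearest peak was 5.77 kb for Hoxb8, 22.6 kb for the hindbrain gene Hoxb1, 26.9 kb for Hoxb4, 35.4 kb for Hoxb13 and 36.8 kb for Hoxb2. A stretch of 99.5 kb without a peak covered Hoxb1, Hoxb2, Hoxb3, Hoxb4 and Hoxb5 and reached past Hoxb6. It ran on 22.6 kb beyond Hoxb1, outside the cluster. Of the 83952 intervals between neighbouring peaks on the chromosomes, 95.6% were no longer than this. The stretch was picked as the longest touching the cluster, so this rank is a description and not a test. The longest stretches at HoxA, HoxC and HoxD ranked at 71.2%, 97.3% and 93.6%.

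HoxC held the strongest Hox peaks, all in its anterior part. Hoxc4 had 5 peaks, with folds of 18.7, 17.7, 8.28, 25.4 and 30.9. The last, chr15:103035635-103036159, had 227 reads (interval 198 to 259) at the lowest background. Hoxc5 had 2 peaks, of which chr15:103014861-103015886 was 1026 bp wide with a fold of 27.9 and contained the microRNA gene Mir615. Its other peak, with a fold of 15.2, was shared with Hoxc6. Hoxc6, a gene of the thoracic region, had 3 peaks in all. The highest fold of any cluster peak, 31.7, was that of chr15:103010496-103011107 inside Hoxc6, with 233 reads (interval 204 to 265). The third peak of Hoxc6 was narrow and had a fold of 7.46. Hoxc8, a gene of the thoracic vertebrae, had 1 peak with a fold of 23.4, 1454 bp from the gene on the side of Hoxc6.

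Posterior HoxC had weaker peaks. Hoxc9 and Hoxc10 had none, with the nearest 11.3 and 10.3 kb away. Hoxc11 had 2 peaks, with folds of 9.22 and 7.05. Hoxc12 had 1, chr15:102938261-102938676, with a fold of 13 and 108 reads (interval 88.6 to 130). Hoxc13, a gene of hair and nail, had none and was 9.45 kb from the nearest. It lay in a stretch of 125 kb without a peak that began outside the cluster and ended at Hoxc12. The long noncoding RNA gene Hotair, which lies between Hoxc12 and Hoxc11, held a peak with a fold of 8.82, and a peak with a fold of 14.1 lay between Hotair and Hoxc11.

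In HoxD most peaks were weak. Hoxd3 had 7 peaks, of which the 3 with folds of 19.2, 16.8 and 9.5 also lay inside Hoxd4, whose gene is contained in the 36.3 kb model of Hoxd3. The strongest, chr2:74723228-74723691, had 165 reads (interval 141 to 192). The other 4 peaks of Hoxd3 had folds of 8, 9.63, 6.65 and 9.15. Only the 2 strongest peaks of HoxD reached a fold of 10, against 15 of 23 in HoxA and 10 of 15 in HoxC. In the whole list 34.5% of peaks had a fold under 10, so HoxA and HoxC were near the list and HoxD fell below it.

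The posterior HoxD genes, which pattern the forearm, wrist and digits, had 4 peaks. Hoxd9 had 2, with folds of 6.51 and 7.87, on either side of the gene. Hoxd10 had 2, with folds of 7.6 and 6.51, the second shared with Hoxd9. Hoxd13, a digit gene, had 1 of 119 bp with a fold of 7.46, 1099 bp from the gene. Hoxd11 and Hoxd12 had none within 2 kb, although the nearest peaks were only 3014 and 2193 bp away, and Hoxd8 had none within 3.47 kb. Hoxd1 was 15.5 kb from its nearest peak. A stretch of 80.7 kb without a peak ended between Hoxd13 and Hoxd12 and contained Evx2, the homeobox gene beyond the posterior end.

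Anterior and posterior genes were then compared across the clusters. A peak lay in or within 2 kb of 14 of 22 anterior genes (63.6%) and 7 of 16 posterior genes (43.8%), a difference of 19.9 percentage points. The share was 68.4% of all protein-coding genes and 42.4% of those no longer than 10 kb. Median lengths were 3.58 kb for anterior and 3.99 kb for posterior genes, so the posterior share was near that of short genes. The difference between anterior and posterior genes depended on the window and on the boundary, and was 10.8 points with only groups 1 to 4 called anterior. With groups 1 to 8 anterior, windows of 5 and 10 kb gave -0.568 and -2.27 points. With no more than the gene itself, 11 of 22 anterior and 5 of 16 posterior genes held a peak, against 64.7% of all protein-coding genes. By cluster, the anterior and posterior counts were 6 of 6 and 2 of 4 in HoxA, 2 of 8 and 0 of 2 in HoxB, 4 of 4 and 2 of 5 in HoxC, and 2 of 4 and 3 of 5 in HoxD. HoxD had the larger share among its posterior genes with this window, but inside the gene itself 2 of 4 anterior and 1 of 5 posterior HoxD genes held a peak. Genes of a cluster share peaks and the list has no replicates, so the difference was not tested.

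**Figure D4:**
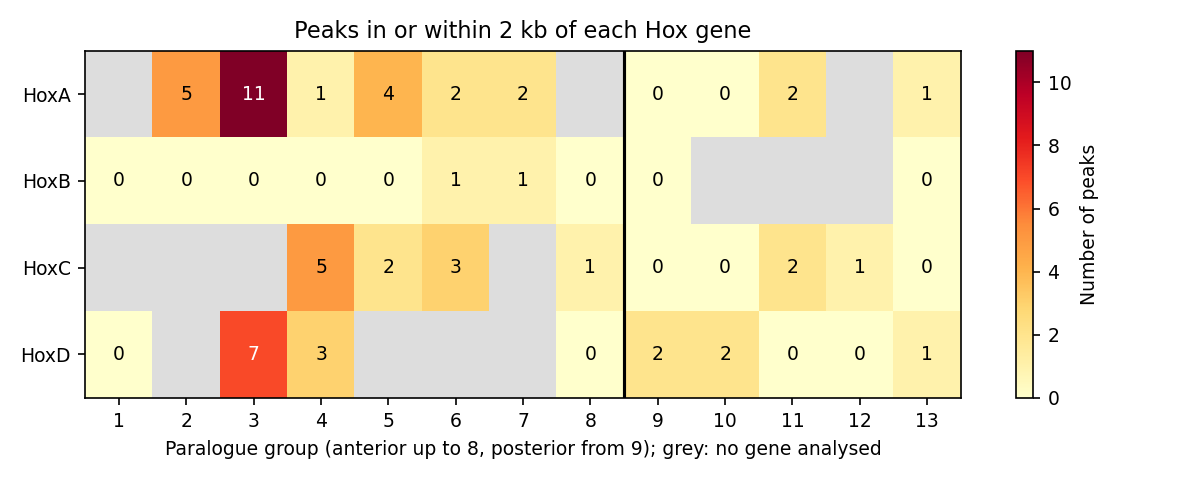
Number of peaks in or within 2 kb of each Hox gene, by cluster (rows) and paralogue group (columns), with a line between anterior and posterior groups and grey where no gene was analysed. Counts reach 11 for Hoxa3 and 7 for Hoxd3, and no posterior gene exceeds 2.

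Peak strength was compared next. The 36 distinct peaks at anterior genes had a median fold of 15.2 and a median width of 484 bp, and the 10 at posterior genes had a median fold of 7.53 and a median width of 174 bp. Over the whole list the median fold was 13.2 and the median width 415 bp. The highest fold at a posterior gene was 13, at Hoxc12, against 31.7 at an anterior gene. Stronger peaks lay between posterior genes, at no Hox gene by the 2 kb rule, and were not counted here. Their folds reached 19.7 in HoxB, 16 in HoxA and 14.1 in HoxC. In each of HoxA, HoxC and HoxD the median fold was lower at posterior genes: 6.38 against 14.6, 9.22 against 21.1 and 7.53 against 9.5. The ranges overlapped in all 3 clusters; in HoxD the folds ran from 6.51 to 7.87 at posterior genes and from 6.65 to 19.2 at anterior ones. At a fold of at least 10 or a −log10 q of at least 50, 1 posterior Hox gene kept a peak, namely Hoxc12, and none did at a −log10 q of at least 100.

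A count that does not depend on gene length was made from all peaks between the first and last gene, split midway between the last anterior and the first posterior gene. The anterior part of HoxA held 29.1 peaks per 100 kb and the posterior part 15. In HoxC these were 20.3 and 7.53, in HoxD 11.2 and 11.7 and in HoxB 1.11 and 1.2. The density was therefore higher anteriorly in HoxA and HoxC and about equal in HoxD and HoxB, the latter with 1 peak on each side. A fold of at least 10 was reached by 23 of 35 peaks in the anterior parts and by 5 of 16 in the posterior parts. In the whole list 34.5% of peaks had a fold under 10, so the anterior share was near that of the list and the posterior share below it. Bases inside peaks made up 18.3% of the anterior and 6.19% of the posterior part of HoxA, 12.1% and 2.58% in HoxC, 3.85% and 1.98% in HoxD, and 0.252% and 0.897% in HoxB.

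**Figure D5:**
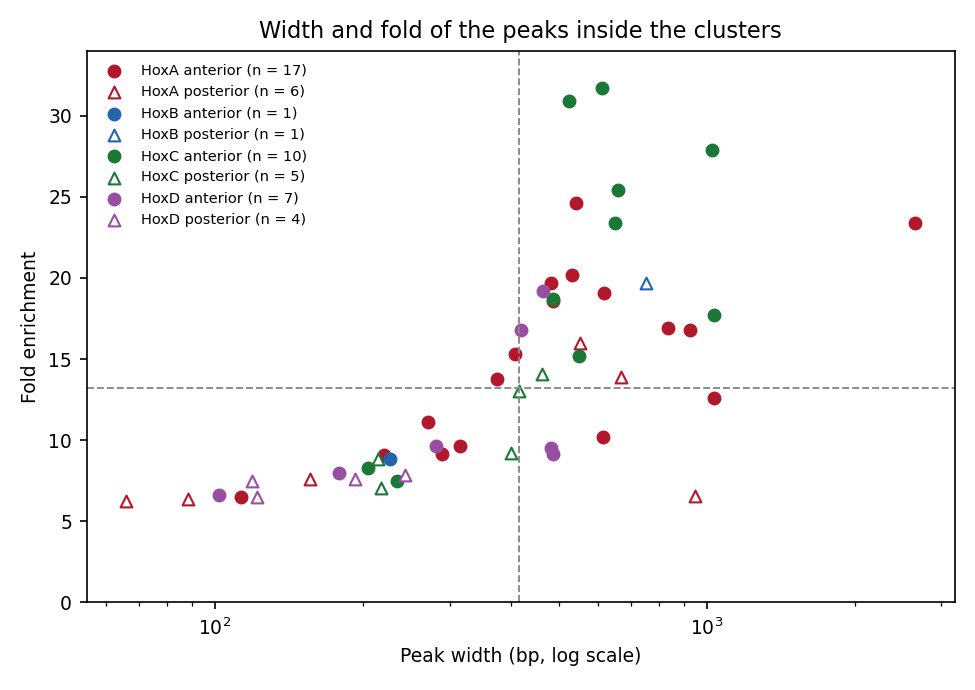
Fold enrichment (vertical axis) against width in bp (horizontal log axis) of the 51 peaks inside the clusters, with filled circles for anterior and open triangles for posterior parts, coloured by cluster; dashed lines are the medians of the whole list, 13.2 and 415 bp. Every peak above a fold of 20 is anterior, in HoxA or HoxC.

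Paralogue groups cut across the clusters. Among the genes analysed, all had a peak in 2 groups, group 6 (Hoxa6, Hoxb6 and Hoxc6) and group 7 (Hoxa7 and Hoxb7). None had one in group 1 (Hoxb1 and Hoxd1). In group 9 only Hoxd9 of 4 genes had a peak, in group 10 only Hoxd10 of 3, and in group 12 Hoxc12 but not Hoxd12. Group 13 was split, with a weak peak at Hoxa13 and Hoxd13 and none at Hoxb13 and Hoxc13. Group 4 ranged from no peak within 26.9 kb of Hoxb4 to 5 peaks at Hoxc4.

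The background of the caller was checked for the 51 cluster peaks. The lowest background was found for 36 of them (70.6%), close to the 75% of the whole list. The 15 above it were 9 in HoxA, 3 in HoxC, 2 in HoxD and 1 in HoxB. The background reached 4.95 times the lowest in HoxA and 2.51 times in HoxB, and stayed within 1.54 times in HoxC and HoxD. HoxA had the most peaks among both kinds, with 14 at the lowest background and 9 above it. Whether mapping, copy number or the background set bears on the higher values in HoxA was not tested.

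The microRNA genes inside the clusters are shown next, because paralogous copies with the same seed lay in clusters that differed in peaks. Their mature 5p sequences, and the 3p sequence of Mir615, are from RefSeq (GRCm38.p6), written 5′ to 3′ with the seed, bases 2 to 8, in capitals.
miR-10a-5p: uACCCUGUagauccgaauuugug
miR-10b-5p: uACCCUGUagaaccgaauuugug
miR-196a-5p: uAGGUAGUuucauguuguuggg
miR-196b-5p: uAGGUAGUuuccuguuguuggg
miR-615-3p: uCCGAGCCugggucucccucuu
miR-10a and miR-10b share the seed ACCCUGU, and miR-196a and miR-196b the seed AGGUAGU. Mir10b, at chr2:74726070-74726137 inside Hoxd4, lay 397 bp from a peak with a fold of 16.8. Its paralogue Mir10a, at chr11:96317165-96317274 inside Hoxb3, was 25.8 kb from the nearest peak. Mir615 lay inside the peak of Hoxc5 with a fold of 27.9. The 3 genes of the miR-196 seed, Mir196b in HoxA, Mir196a-1 in HoxB and Mir196a-2 in HoxC, were 9.23, 15.9 and 16.9 kb from the nearest peak. In all, 2 of the 6 microRNA genes (33.3%) had a peak within 2 kb, near the 34.6% of 920 microRNA genes on covered sequence.

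Of the 10 long noncoding RNA genes listed for the clusters, 7 (70%) had a peak in or within 2 kb, against 45.2% of 9903 long noncoding RNA genes on covered sequence. They lie in or beside the clusters and share many of these peaks with Hox genes, so the count is not independent of those above. Hoxaas2 had 5, the highest with a fold of 24.6, and Hoxaas3 and Hoxa11os had 4 each, with highest folds of 23.4 and 16. Hotairm1, an RNA gene at the anterior end of HoxA, had 3 with a highest fold of 19.7. Hotair, Hoxb5os and Haglr had 1 each, with folds of 8.82, 8.82 and 9.15. Hottip, at the posterior end of HoxA, Hoxb3os and Hoxd3os1 had none.

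Genes outside the clusters that control Hox genes were counted by the same rule. Polycomb genes, which keep Hox genes silent, had a peak in 11 of 14 cases, the highest with a fold of 40 at Phc3, and Bmi1, Ezh2 and Suz12 had none. Trithorax-type genes, which keep Hox genes active, had a peak in 4 of 5 cases, with a fold of 51.7 at Kmt2d, the highest value among these lists. Of 5 genes of retinoic acid signalling, which controls anterior Hox genes, 4 had a peak, the highest with a fold of 43.8 at Rarb. These genes are long, with median lengths from 21.9 kb (Trithorax) to 33.5 kb (Polycomb), so their counts belong beside the 68.4% of all protein-coding genes.

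Of 9 other homeobox genes upstream of or related to Hox genes, only Cdx1 and Evx1 had a peak. Cdx1, an activator of Hox genes, had 2 with a highest fold of 28.5, and Evx1, beyond the posterior end of HoxA, had 1 with a fold of 6.92. Gsx1, Gsx2, Pdx1, Cdx2, Evx2, Gbx2 and Mnx1 had none. The median length of this list was 4.89 kb, near that of the Hox genes, and its share, 22.2%, lay below the 42.4% of genes no longer than 10 kb. Among 13 neighbouring genes of other families, 12 (92.3%) had a peak, against 68.4% of all protein-coding genes, whose median length of 18.6 kb is below the 53.1 kb of these neighbours. These were Skap2, Snx10, Hibadh, Tax1bp1 and Jazf1 around HoxA, Skap1 and Ttll6 around HoxB, Calcoco1, Smug1 and Cbx5 around HoxC, and Lnpk and Mtx2 around HoxD. Their highest folds ran from 6.1 at Cbx5 to 34.1 at Skap1, and Atp5g3 had none. Both listed neighbours of HoxB thus had peaks, 21 in Skap1 and 4 in Ttll6, while the cluster between them had 2.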

How the data were processed

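Genomic DNA of 6 primary chondrocyte cultures (control n = 3, cKO n = 3) was enriched with MBD2 and sequenced, per the labels' protocols. The submitters' processing notes name fastp, Bowtie2 and MACS2, with no version or parameters, and the builds mm10 and GRCm38. The deposited list has the narrowPeak layout, although its headers name other fields (ThickStart, ThickEnd, ItemRGB and BlockCount). By the layout and the values, columns hold the fold enrichment (a ratio over the caller's background), −log10 p and −log10 q. They also hold a deposited score that is 10 times the −log10 q cut to a whole number. Start, end and summit are positions. Per the peak names, 3 datasets were merged before calling. The lowest −log10 q was 20, so weaker enrichment was not in the list. The last line was incomplete and left out; the list reaches base 88818859 of chromosome 6, beyond HoxA, and sequence outside chromosomes 1 to 6 and 10 to 19 was not analysed here.

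Peaks were placed by midpoint on RefSeq genes of GRCm38.p6, the build the notes name, leaving out the first 3 Mb of each chromosome. Pileup and background were solved from fold = (pileup + 1)/(background + 1) and the Poisson p-value, and a pileup counted as whole within 1% of the spacing. This matched 99.97% of peaks and all Hox peaks. On 5000 peaks simulated with the same formulas 100% were recovered, which checks the solving and not whether the list follows the formulas. The members and lists were chosen with earlier results of these data known. The rule for named genes was every Hox gene with its peaks, every noncoding or neighbouring gene of the lists with a peak, and the gene with the highest fold of each other list; the remaining list genes were named after their values were seen. Of 81 listed genes, 79 were found (not Prac1 and Prac2) and 68 lay on covered sequence; the list of Hox cofactors is not reported here. The planned test on counts could not be run, as the file has none per sample. Alternatives were other thresholds, placements, windows and flanks. Python 3.11.15, pandas 2.3.3, NumPy 2.4.6 and SciPy 1.17.1 were used.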

Additional observations from a re-analysis of the deposited data

How the results depend on the processing

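No paired analysis was possible because no column belongs to a single culture, so that no replicate could be left out and no count test run. The 4 clusters kept the order HoxA, HoxC, HoxD, HoxB by number of peaks under the 8 alternatives on peak threshold, placement, merging and background. This order is of counts and takes no account of cluster length. After merging, HoxC held 11 peaks in 116 kb and HoxD 10 in 96.9 kb. The anterior excess of genes with a peak reversed with windows of 5 kb (-0.568 points) and 10 kb (-2.27 points). Of 245 recomputed values 154 stayed close, within 1.5 times for counts and stretches and within a 95% counting interval for medians, shares and the difference. These intervals took genes or peaks as independent, although neighbouring genes share peaks. Differences of 45.5 points at a −log10 q of at least 100 and 34.7 points with peaks above the lowest background thus counted as close. The reported difference was 19.9 points. Under placement by summit or overlap and under merging all values stayed within these limits, although merging peaks within 500 bp lowered HoxA from 23 to 17 peaks and HoxC from 15 to 11.

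Of the values that moved, those on genes, peaks and stretches of the clusters are given by setting. Flank densities moved too, down to between 0 and 3 peaks per 100 kb. Posterior genes with a peak numbered 11 and 12 at windows of 5 and 10 kb. Peaks above the lowest background alone left 9 anterior genes and 1 posterior gene. With only groups 1 to 4 called anterior, 6 anterior genes had a peak. At a −log10 q of at least 50, 13 Hox genes had a peak (34.2%, against 61.2% of protein-coding genes). HoxB had 0 of these genes and HoxD 2, and the anterior excess was 48.3 points. HoxB held 1 peak and HoxD 2, and stretches without a peak reached 76.7 kb (HoxA), 163 kb (HoxB) and 131 kb (HoxD). The peaks of the clusters and their 100 kb flanks had a median fold of 16.8 and width of 525 bp. With all peaks these medians were 11.9 and 404 bp, and the medians below cover the same regions. A fold of at least 10 gave equal gene counts and stretches (13, 0 and 2 genes, against 60.4% of protein-coding genes; 48.3 points; 76.7, 163 and 131 kb), with 15 peaks in HoxA, 1 in HoxB and 2 in HoxD and medians of 16.9 and 506 bp. At a −log10 q of at least 100, 10 genes had a peak (26.3%, against 52.9%; 4 in HoxA, 0 in HoxB, 2 in HoxD), the clusters held 12, 1, 7 and 2 peaks from HoxA to HoxD, stretches were 136 kb (HoxA), 199 kb (HoxB) and 131 kb (HoxD), and medians 19.7 and 614 bp. Peaks at the lowest background alone left 14 in HoxA and 1 in HoxB, and a stretch of 208 kb at HoxC. Peaks above it alone left 10 genes (26.3%, now above the 21.5% of protein-coding genes; 5, 0, 3 and 2 from HoxA to HoxD), 9, 1, 3 and 2 peaks, stretches of 283 kb (HoxA), 417 kb (HoxB) and 444 kb (HoxD), a median width of 660 bp and 17 of the 68 list genes, against 48 with all peaks. HoxB had 0 genes with a peak at windows of 0 and 1 kb, and HoxD had 3 at 0 kb and 8 at 5 and 10 kb; Hox shares of 42.1%, 44.7%, 68.4% and 73.7% at 0, 1, 5 and 10 kb stood against 64.7%, 66.4%, 74.1% and 81.7%. Among gene models no longer than 10 kb, an alternative chosen after seeing the data, HoxD had 3. A stricter threshold removes peaks, so counts under it could only fall or stay equal. The size of these falls and the cause of the other changes were not tested. Regions below the lowest −log10 q of the list cannot be told from unmethylated ones.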
